A study of Mus musculus with 14 samples.

Results

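Serpins are a family of protease inhibitors, and 7 serpin genes that T cells are known to use were followed here through 3 kinds of activated mouse CD4 T cell culture: Serpinb9, Serpinb9b, Serpinb6a, Serpinb6b, Serpinb1a, Serpina3f and Serpina3g. They are 7 of 27179 genes in the count table and 7 of its 65 serpin genes. The 7 were chosen by symbol with their levels in these 14 libraries, and the differences between the 3 cultures, already known. Their values are therefore a description and carry no p-value, and all 7 were found and passed the filter on low counts. Naive CD4 T cells of C57BL/6 mice were grown for 3.5 days on plates coated with antibodies to CD3 and CD28, then stained, sorted, and used for bulk RNA sequencing from 100 ng of RNA. The 5 Th1 libraries came from Th1 conditions, whose components the labels do not spell out. The 4 TfhA libraries (replicates 1, 2, 4 and 5) came from follicular helper conditions with an antibody that blocks TGF-β, and the 5 Tfh5 libraries from follicular helper conditions with 5 ng/ml TGF-β. Library totals ran from 8805921 to 16108059 counts. TfhA and Tfh5 differ by the blocking of TGF-β in the former and its addition in the latter. Nothing in the labels ties a library to its own animal or culture, so a p-value given below measures only the spread between these samples, which may be technical.

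A serpin offers its target protease a flexible loop as bait, and when the protease cuts the loop both molecules lock into a complex that leaves the protease inactive. Clade B serpins stay inside the cell, where they can neutralise proteases that leak from granules or lysosomes. Serpinb9 inhibits granzyme B, the protease of cytotoxic granules that triggers death of target cells, and protects the lymphocytes that make it. Serpinb9b inhibits granzyme M, Serpinb6b inhibits granzyme A, Serpinb6a inhibits cathepsin G, and Serpinb1a inhibits neutrophil elastase, proteinase 3 and cathepsin G. Most clade A serpins are secreted, but Serpina3g works inside the cell, where it inhibits cathepsins released from lysosomes. Serpina3f is its close relative.

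Promoter sequences show how alike the paired genes are near their starts. Of the 7 genes, 6 had a promoter window of 300 bases (250 before and 50 after a transcription start) in RefSeq for GRCm38.p6, with 8 windows among them. Serpinb1a had no window and could not be searched. The windows were searched on both strands for the STAT site TTCNNNGAA, which 8.3% of all 32851 windows hold, and for the interferon-response element (GAAA, any 2 bases, GAAA), which 3.44% hold. Serpina3f and Serpina3g are shown first because 202 bases of their windows aligned at 83.7% identity and each window holds the STAT site, in capitals. The aligned part runs from base -250 to -48 of the first Serpina3f start and from base -163 to 49 of the Serpina3g start. The Serpina3f stretch is chr12:104214383-104214471 and the Serpina3g stretch chr12:104236074-104236171, both on the plus strand.
Serpina3f: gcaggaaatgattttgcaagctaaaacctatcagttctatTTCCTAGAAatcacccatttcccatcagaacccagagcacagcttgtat
Serpina3g: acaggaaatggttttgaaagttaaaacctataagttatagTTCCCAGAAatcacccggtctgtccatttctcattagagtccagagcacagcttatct
Counted from 1 at the first capital, the site of Serpina3g differs from that of Serpina3f by T5C, which lies in the free letters of the motif. The capitals begin at base -121 of the first Serpina3f start and at base -33 of the Serpina3g start.

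Serpinb9 and Serpinb9b aligned over 193 bases at 76.7% identity, and are shown because the interferon-response element is in the first and not in the second. The stretches are chr13:33004455-33004544 for Serpinb9 and chr13:33027329-33027421 for Serpinb9b, on the plus strand. Capitals mark the element in Serpinb9, which reads on the opposite strand, and the aligned bases in Serpinb9b.
Serpinb9: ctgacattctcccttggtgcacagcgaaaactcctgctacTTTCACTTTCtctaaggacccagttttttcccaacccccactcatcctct
Serpinb9b: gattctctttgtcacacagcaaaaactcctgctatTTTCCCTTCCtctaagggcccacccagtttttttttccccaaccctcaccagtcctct
The Serpinb9b bases differ from the Serpinb9 element by A5C and T9C, counted from 1 at the first capital. Serpinb6a, whose level varied least between the cultures, holds an interferon-response element that overlaps a STAT site in the window of its upstream start, within chr13:34002833-34002908 on the minus strand, with both in capitals.
Serpinb6a: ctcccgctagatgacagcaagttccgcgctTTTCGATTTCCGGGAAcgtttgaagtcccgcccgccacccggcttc
The Serpinb6b window holds neither motif. An AP-1 site (TGANTCA, in 7.81% of all windows), a T-box site (AGGTG followed by TGA, 1.28%) and a SMAD box (GTCT followed by AGAC, 0.213%) were in none of the 8 windows, and the SMAD-linked CAGACA (21%) was in 1, at the second start of Serpina3f. Serpinb1a, without a window, is not covered by any of these searches. A match here is a run of letters, not a measured binding site, and no measurement of binding was made.

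Near-identical copies limit how far a count can be assigned to 1 serpin. The coding sequences of Serpinb9 and Serpinb9b were 86.4% identical in GENCODE transcripts, those of Serpinb6a and Serpinb6b 86.3%, and those of Serpina3f and Serpina3g 87.4%. The share of 50-base words of a transcript that also occur in another gene was 0.38% for Serpinb9, 0.499% for Serpinb9b, 2.96% for Serpinb6a, 3.12% for Serpinb6b and 3.42% for Serpinb1a. It reached 10.7% for Serpina3f and 16% for Serpina3g, so these levels depend most on how the counting treated reads with several places, a setting that is unknown here. The exons of Serpinb6a also overlap genes on the opposite strand over 14.1% (Nqo2), 10.8% (1110046J04Rik) and 4.46% (Ripk1) of its 5409 exonic bases, and those of Serpinb9b overlap Gm36099 over 8.3%. The strand setting of the counting is unknown too, so reads from such stretches cannot be assigned.

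Serpinb9, the granzyme B inhibitor (Entrez gene 20723, chr13:32997061-33017955), was abundant in Th1 and TfhA cells and low in Tfh5 cells. Levels are given as CPM, counts scaled to a common library size, after TMM scaling, a factor per library that aligns most genes. In Th1 replicates 1 to 5 Serpinb9 measured 107, 113, 133, 127 and 114 CPM. In TfhA replicates 1, 2, 4 and 5 it measured 102, 70.6, 94.5 and 88.8 CPM. In Tfh5 replicates 1 to 5 it measured 3.81, 3.26, 3.02, 8.16 and 3.44 CPM. The groups did not overlap, although the lowest Th1 library and the highest TfhA library lay close together, and Tfh5 replicate 4 stood above the other Tfh5 libraries. Group means were 118.7 ± 10.8 (SD, n = 5), 89.0 ± 13.5 (n = 4) and 4.34 ± 2.16 CPM (n = 5). On the log2 scale Tfh5 was lower than TfhA by a difference of -4.36 ± 0.19 (SE of the fit), or 20.6-fold, and lower than Th1 by -4.78 ± 0.19, or 27.4-fold. TfhA was 1.33-fold lower than Th1 (-0.41 ± 0.15). In bulk RNA, fewer cells that express a gene and less RNA of it per cell cannot be told apart, and this holds for every level below.

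Serpinb9b, the granzyme M inhibitor next to it (Entrez gene 20706, chr13:33027414-33040588), had its highest level in TfhA cells. It measured 2.18, 2.63, 2.8, 2.98 and 4.03 CPM in Th1 replicates 1 to 5. It measured 26.8, 14.8, 18.8 and 17.3 CPM in TfhA replicates 1, 2, 4 and 5. In Tfh5 cells it had 3 counts in replicate 1, 2 counts in replicate 5 and 0 in the other libraries. The groups did not overlap, and all 4 TfhA libraries lay above every Th1 library. TfhA was 6.66-fold above Th1 (log2 difference 2.74 ± 0.25). Against the 5 counts of the Tfh5 group, the CPM ratio was 217 for TfhA (95% exact counting interval 92.8 to 671) and 31.7 for Th1 (13.4 to 98.7). Such intervals cover counting error only. The fitted TfhA to Tfh5 fold of 192 became 352 without Tfh5 replicate 1, and that of Th1 to Tfh5 moved from 28.9 to 53. The ratio of Serpinb9 to Serpinb9b counts was 28.3 to 48.9 in Th1 libraries and 3.81 to 5.13 in TfhA libraries.

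Serpinb6b, the granzyme A inhibitor (Entrez gene 20708, chr13:32956811-32979067), followed the order Th1, TfhA, Tfh5. It measured 219, 243, 245, 270 and 226 CPM in Th1 replicates 1 to 5. It measured 154, 83.2, 137 and 106 CPM in TfhA replicates 1, 2, 4 and 5. It measured 7.52, 4.18, 4.53, 3.32 and 7.09 CPM in Tfh5 replicates 1 to 5. No libraries of different groups overlapped, and the TfhA libraries spread most among themselves in CPM. Means were 240.8 ± 20.0, 120.0 ± 31.7 and 5.33 ± 1.87 CPM. TfhA was 2.01-fold below Th1, and Tfh5 was 22.3-fold below TfhA (-4.48 ± 0.19) and 44.6-fold below Th1 (-5.48 ± 0.19).

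**Figure D1:**
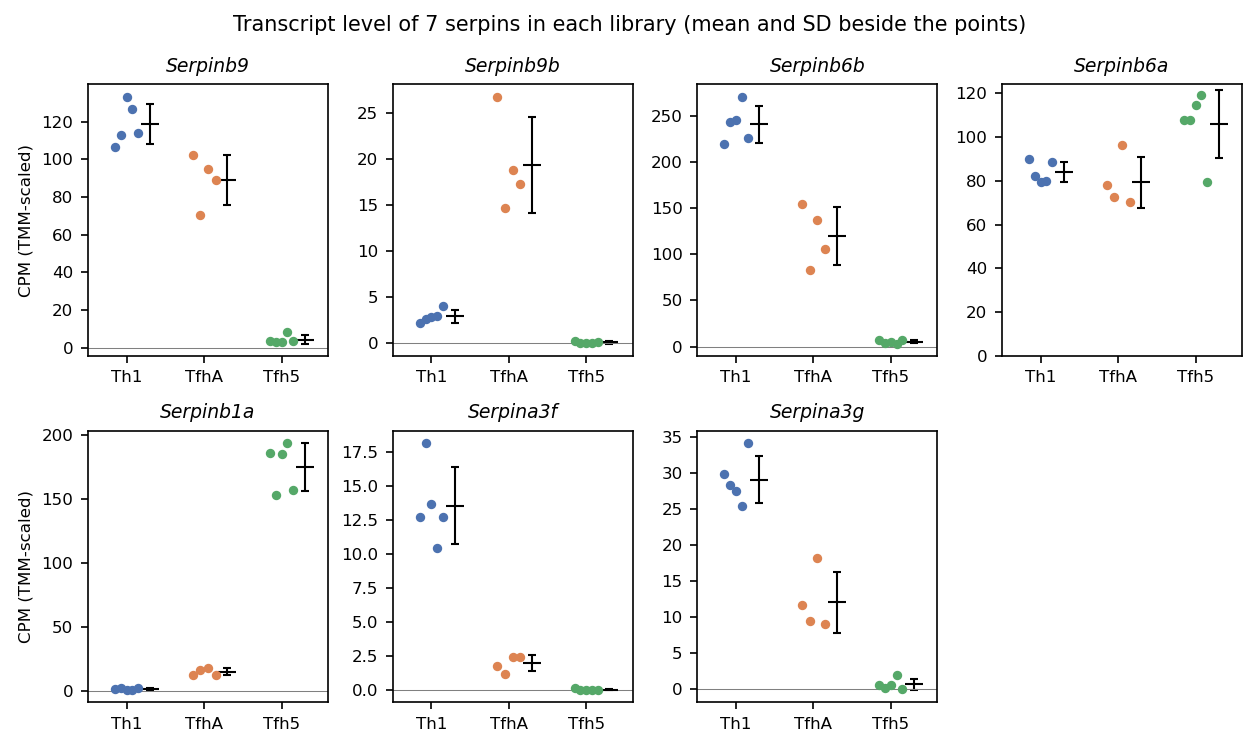
Transcript level of the 7 serpins (y axis, TMM-scaled CPM, own range for each gene) in each library of Th1 (n = 5), TfhA (n = 4) and Tfh5 (n = 5); points are libraries, and the bars beside them give the mean and SD. The Tfh5 points lie near 0 for Serpinb9, Serpinb9b, Serpinb6b, Serpina3f and Serpina3g, and above all other libraries for Serpinb1a.

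Serpinb6a, the cathepsin G inhibitor (Entrez gene 20719, chr13:33917918-34002794), varied least between the 3 cultures. It measured 89.8, 82.5, 79.6, 80.1 and 88.5 CPM in Th1 replicates 1 to 5. It measured 78.2, 72.6, 96.3 and 70.4 CPM in TfhA replicates 1, 2, 4 and 5. It measured 108, 108, 115, 119 and 79.5 CPM in Tfh5 replicates 1 to 5. The groups overlapped in all 3 comparisons. The TfhA range spanned the Th1 range, while 4 of the 5 Tfh5 libraries lay above both and replicate 5 lay within the TfhA range and just under the Th1 range. Means were 84.1 ± 4.75, 79.4 ± 11.7 and 105.8 ± 15.5 CPM. Tfh5 was 1.33-fold above TfhA (log2 0.41 ± 0.11) and 1.26-fold above Th1 (0.33 ± 0.11). TfhA and Th1 differed by -0.08 ± 0.11, which is within its error, and this difference was 0.07 with 3 libraries left out together (TfhA replicates 2 and 5, Th1 replicate 1). Nqo2, whose exons overlap it, measured 123.7 ± 5.62 CPM in TfhA against 31.0 ± 5.36 in Th1 and a mean of 32.6 in Tfh5 cells. The part of reads from the shared exons in the Serpinb6a values was not tested.

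The proportion of these related serpins turned over between the cultures. The ratio of Serpinb6b to Serpinb6a counts was 2.44 to 3.38 in Th1 libraries, 1.15 to 1.97 in TfhA libraries and 0.0278 to 0.0893 in Tfh5 libraries. The 3 ranges did not overlap.

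Serpinb1a, the inhibitor of neutrophil elastase and related proteases (Entrez gene 66222, chr13:32842092-32853206), ran in the reverse order. It measured 2.12, 2.29, 1.36, 0.97 and 2.21 CPM in Th1 replicates 1 to 5. It measured 12.8, 16.6, 18.3 and 12.8 CPM in TfhA replicates 1, 2, 4 and 5. It measured 186, 153, 185, 194 and 158 CPM in Tfh5 replicates 1 to 5. Each group lay wholly above the one before. Means were 1.79 ± 0.588, 15.1 ± 2.76 and 175.2 ± 18.5 CPM. Tfh5 was 11.6-fold above TfhA (log2 3.54 ± 0.15) and 97.1-fold above Th1 (6.60 ± 0.17), and TfhA was 8.37-fold above Th1 (3.07 ± 0.18). Its closest copy Serpinb1b, 90.7% identical in coding sequence, had 5, 15 and 34 counts over the Th1, TfhA and Tfh5 groups and stayed under 1 CPM in each.

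Serpina3g, the intracellular cathepsin inhibitor (Entrez gene 20715, chr12:104236147-104241939), was highest in Th1 cells. It measured 29.9, 28.4, 27.5, 25.5 and 34.2 CPM in Th1 replicates 1 to 5. It measured 11.7, 9.46, 18.2 and 9.02 CPM in TfhA replicates 1, 2, 4 and 5. It measured 0.571, 0.204, 0.566, 1.99 and 0 CPM in Tfh5 replicates 1 to 5. The groups did not overlap, and 21 of the 35 Tfh5 counts came from replicate 4. TfhA was 2.41-fold below Th1 (log2 -1.27 ± 0.27). Tfh5 was 18.5-fold below TfhA (-4.21 ± 0.39) and 44.5-fold below Th1 (-5.48 ± 0.36), or 36.6-fold and 88.5-fold without Tfh5 replicate 4.

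Serpina3f, its neighbour in the clade A cluster (Entrez gene 238393, chr12:104214544-104221129), had the same order at lower levels. It measured 12.7, 18.1, 13.7, 10.5 and 12.7 CPM in Th1 replicates 1 to 5. It measured 1.74, 1.19, 2.38 and 2.44 CPM in TfhA replicates 1, 2, 4 and 5. A single count in replicate 1 was the whole Tfh5 total. The groups did not overlap, and TfhA was 7.07-fold below Th1 (log2 -2.82 ± 0.26). The CPM ratio to that single count was 743 for Th1 (95% exact counting interval 133 to 2.94e+04) and 103 for TfhA (18 to 4.12e+03). The fitted folds of 475 and 67.2 became 1.33e+03 and 187 without Tfh5 replicate 1. The ratio of Serpina3g to Serpina3f counts was 1.56 to 2.69 in Th1 libraries and 3.7 to 7.93 in TfhA libraries.

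Across the 7 genes, the makeup differed more between the cultures than the sum did. Per kilobase of transcript, which allows levels of different genes to be set side by side, the 7 genes summed to 223.9 ± 6.84 CPM per kb in Th1, 154.6 ± 26.6 in TfhA and 165.8 ± 18.6 in Tfh5 cells. The length is that of 1 transcript per gene, which for Serpinb6a is 1504 bases where its annotated exons cover 5409, so its share rests on that choice and would be smaller with the longer length. Serpinb6b led in Th1 cells with a mean of 48.98% of that sum, followed by Serpinb6a with 25.02% and Serpinb9 with 15.25%. In TfhA cells Serpinb6b (35.01 ± 4.18%) and Serpinb6a (34.42 ± 3.59%) had like shares within their spread, and Serpinb9 had 16.67%. In Tfh5 cells Serpinb1a held 55.19% and Serpinb6a 42.34%, and the granzyme B inhibitor Serpinb9 held 0.742%. Serpinb9b was largest in TfhA cells, with 3.85%, and Serpina3g in Th1 cells, with 7.23%.

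**Figure D2:**
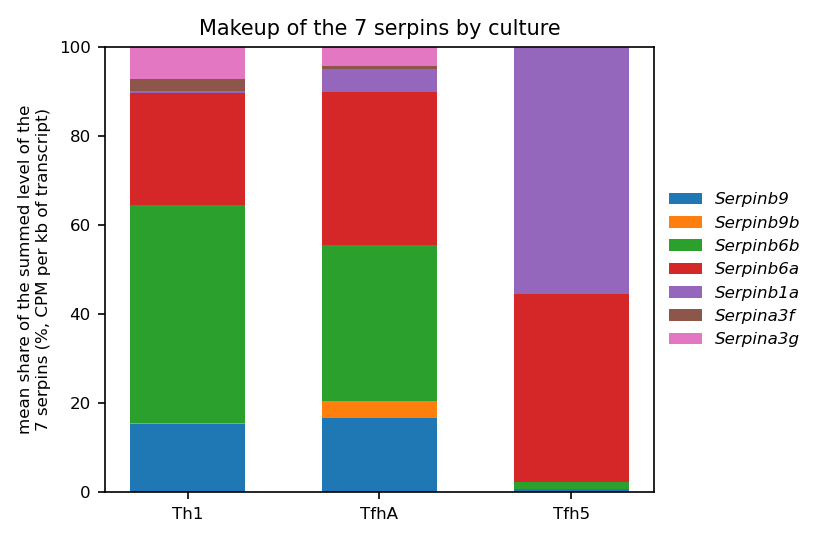
Mean share of each serpin in the summed level of the 7 (y axis, % of CPM per kb of transcript) in each culture (x axis; Th1 n = 5, TfhA n = 4, Tfh5 n = 5). Serpinb6b is the largest block in Th1 (48.98%), and Serpinb1a is the largest in Tfh5 (55.19%).

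Between Tfh5 and TfhA, 2 of the 7 were past the threshold and higher in Tfh5 and 5 were lower, where an adjusted p below 0.05 in edgeR's quasi-likelihood test marked 57.5% of all 13075 tested genes (27.4% higher, 30.1% lower). Libraries did not overlap for 1 higher and 5 lower members, against 44.2% of tested genes (20.8% higher, 23.4% lower). Between TfhA and Th1, 2 were higher (Serpinb9b and Serpinb1a), 4 were lower and Serpinb6a was not past the threshold, against 44.8% of tested genes (23.2% higher, 21.6% lower), and 2 higher and 4 lower had no overlap, against 38.1% (19.3% higher, 18.7% lower). Between Tfh5 and Th1, 2 were higher and 5 lower, against 64.6% (31.5% higher, 33% lower), and 1 higher and 5 lower had no overlap, against 50.2% (23.7% higher, 26.5% lower). The members were chosen with these contrasts in view, so nothing is read from these counts. The 3 comparisons share samples, so a gene's 3 differences are not independent. The median log2 fold change of all tested genes was -0.01, 0.03 and -0.01 in the order given. The shares of all tested genes given here also stand beside the counts for other serpins and gene lists below.

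Few of the other serpins were transcribed. Of 58 others in the table, 34 had no count in any library, 18 had some counts but stayed under 1 CPM in every group mean, with at most 54 counts over all libraries, and 6 were tested. These 6 had at least 1 CPM in a group mean, and 4 of them fell and 1 rose in Tfh5 against TfhA, 3 fell in TfhA against Th1, and 5 fell and 1 rose in Tfh5 against Th1. Other clade B serpins numbered 23, of which Serpinb5 alone was tested, and of 23 other clade A serpins none was.

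Serpinb5, or maspin, known from epithelial cells, lies outside the chromosome 13 cluster. It measured 573, 723, 748, 750 and 737 CPM in Th1 replicates 1 to 5. It measured 233, 192, 206 and 218 CPM in TfhA replicates 1, 2, 4 and 5. It measured 31.1, 24.6, 28.3, 20.0 and 26.4 CPM in Tfh5 replicates 1 to 5. The groups did not overlap, and the order was that of Serpinb6b. Serpinb5 fell by 3.02 ± 0.12 on the log2 scale from TfhA to Tfh5 (8.13-fold, edgeR adjusted p = 8.43e-17), was lower in TfhA than in Th1 by 3.33-fold (adjusted p = 5.09e-12) and lower in Tfh5 than in Th1 by 27.1-fold (adjusted p = 1.43e-20).

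Other tested serpins belong to clades whose members are mostly secreted. Serpine2, or protease nexin-1, measured 108.2 ± 8.38, 98.4 ± 8.75 and 14.6 ± 2.36 CPM for Th1, TfhA and Tfh5 and fell 6.71-fold from TfhA to Tfh5 (adjusted p = 5.5e-16). Its TfhA and Th1 levels differed by -0.14 ± 0.11 (log2, adjusted p = 0.309). Serpinf1, or PEDF, fell 2.63-fold from TfhA to Tfh5, from 206.6 ± 32.0 to 78.8 ± 7.03 CPM (adjusted p = 4.79e-11). Serpini1, or neuroserpin, was the member of the 6 that rose in Tfh5, from 3.96 ± 0.455 to 7.50 ± 1.70 CPM (1.89-fold, adjusted p = 0.00124). Serpinc1, or antithrombin, was 5.42-fold lower in TfhA than in Th1 (1.32 ± 0.556 against 7.20 ± 1.10 CPM, adjusted p = 1.51e-05) and did not differ past the threshold between Tfh5 and TfhA (adjusted p = 0.895).

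**Figure D3:**
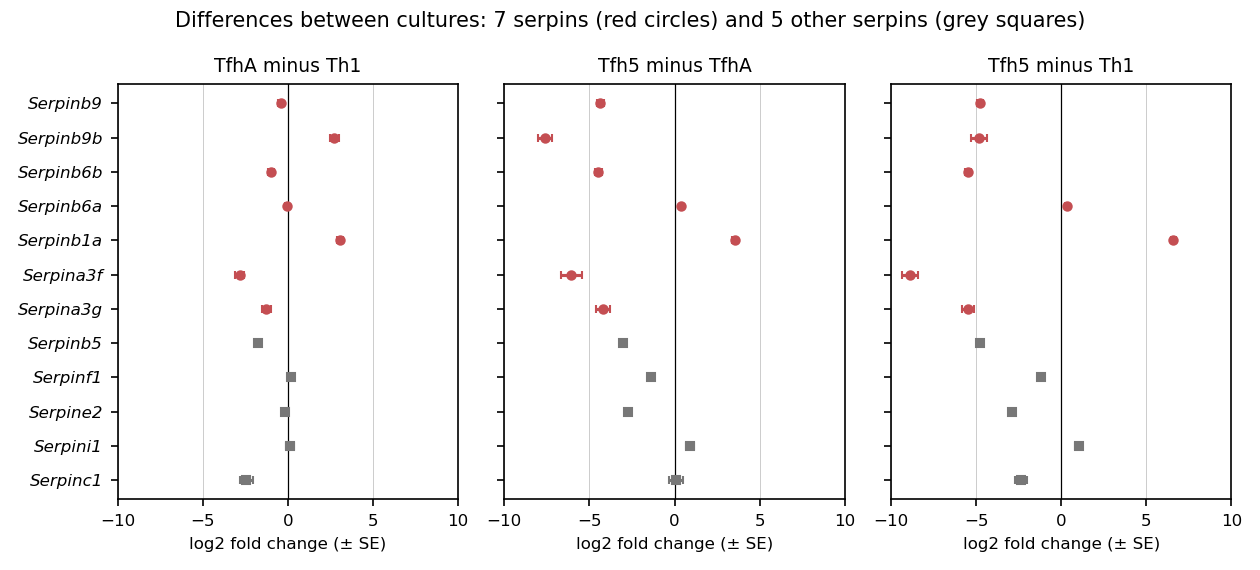
Log2 fold change ± SE (x axis) of the 7 serpins (red circles) and 5 other tested serpins (grey squares) in each of the 3 comparisons; bars shorter than the symbol are hidden. In Tfh5 minus TfhA the red circles lie to the right of 0 for Serpinb1a (3.54) and Serpinb6a (0.41) and to the left for the other 5.

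The proteases named above as targets of these serpins, and others of their classes, were then followed. Of 16 granule serine proteases listed, 3 passed the filter on low counts: Gzmb, Gzmc and Gzma. All 3 fell in Tfh5 against both other cultures, and 2 rose in TfhA against Th1. Gzma, with 8 counts in Tfh5, and Gzmc, with 1, could pass the filter only through Th1 or TfhA libraries. Their fall in Tfh5 is therefore not independent of that filter.

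Gzmb, granzyme B, is the target of Serpinb9. It measured 537, 658, 503, 650 and 564 CPM in Th1 replicates 1 to 5. It measured 1514, 1303, 1774 and 1294 CPM in TfhA replicates 1, 2, 4 and 5. It measured 16.1, 1.73, 1.70, 1.61 and 3.73 CPM in Tfh5 replicates 1 to 5. The groups did not overlap, and the protease was highest in TfhA cells while its inhibitor was highest in Th1 cells. Gzmb rose 2.53-fold from Th1 to TfhA (log2 1.34 ± 0.29, edgeR adjusted p = 0.000521) and fell 296-fold from TfhA to Tfh5 (adjusted p = 7.04e-15), or 642-fold without Tfh5 replicate 1. Tfh5 was 117-fold below Th1 (adjusted p = 3.79e-14), or 255-fold without that library. The ratio of Gzmb to Serpinb9 counts was 3.78 to 5.82 in Th1 libraries, 14.6 to 18.8 in TfhA libraries and 0.198 to 4.22 in Tfh5 libraries. The TfhA range lay above all others. The highest Tfh5 ratio came from replicate 1, and the other Tfh5 libraries lay between 0.198 and 1.09.

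The targets named above for Serpinb6b and Serpinb9b were scarce. Gzma, granzyme A, measured 1.54 ± 0.474 CPM in Th1, 2.85 ± 1.16 in TfhA and 0.139 ± 0.210 in Tfh5 cells. Its fall from TfhA to Tfh5 passed the threshold (adjusted p = 2.28e-06), and its TfhA and Th1 levels did not differ past it (adjusted p = 0.108). Gzmm, granzyme M, had 15, 15 and 1 counts over the Th1, TfhA and Tfh5 groups and was not tested. Gzmc, granzyme C, measured 3.36 ± 1.02 CPM in Th1 and 19.5 ± 3.84 in TfhA cells (5.75-fold, adjusted p = 2.4e-09) and had 1 count in Tfh5 cells. Its CPM ratio between TfhA and Tfh5 was 1.05e+03 (95% exact counting interval 187 to 4.13e+04).

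The targets named above for Serpinb1a and Serpinb6a had almost no counts. Whether these serpins inhibit other proteases that were transcribed here was not tested. Elane, neutrophil elastase, had 0, 2 and 0 counts over the Th1, TfhA and Tfh5 groups. Prtn3, proteinase 3, had 3, 0 and 0 counts. Ctsg, cathepsin G, had 3, 1 and 10 counts. Serpinb1a reached its level in Tfh5 cells with each of these transcripts at or below 10 counts in a group of 5 libraries.

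The proteases listed as lysosomal, among which are the targets of Serpina3g, were mostly higher in Tfh5 cells, where that serpin was lowest. Of all tested genes, 27.4% were higher and 30.1% lower in Tfh5 against TfhA, and 31.5% and 33% in Tfh5 against Th1. Of 13 tested, 10 rose, 1 fell and 2 did not pass in Tfh5 against TfhA (median log2 fold change 1.30, against -0.01 for all tested genes), 11 rose and 2 fell in Tfh5 against Th1 (median 1.18), and 3 rose and 5 fell in TfhA against Th1 (median -0.18). Lgmn, the asparagine-specific protease legumain, rose 18.2-fold from TfhA to Tfh5 (5.21 ± 1.45 to 96.7 ± 14.1 CPM, adjusted p = 3.14e-16). Ctsw, cathepsin W, rose 10.9-fold (32.6 ± 6.99 to 355.0 ± 16.1 CPM, adjusted p = 2.27e-16). Ctsl, cathepsin L, rose 9.37-fold (6.83 ± 1.49 to 63.8 ± 8.43 CPM, adjusted p = 2.49e-14), and Ctsf, cathepsin F, 6.52-fold at 5.71 ± 1.94 CPM in Tfh5 (adjusted p = 1.34e-07). Between TfhA and Th1, no difference passed for Lgmn (log2 -0.38 ± 0.18, adjusted p = 0.0813) or Ctsl (-0.18 ± 0.17, adjusted p = 0.423). Ctsb, cathepsin B, was abundant in all 3 cultures, at 369.1 ± 29.8, 289.9 ± 38.8 and 475.0 ± 39.7 CPM, and rose 1.64-fold from TfhA to Tfh5 (adjusted p = 1.04e-06). Ctsz was the member that fell in Tfh5 against TfhA (1.29-fold, adjusted p = 0.0234).

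**Figure D4:**
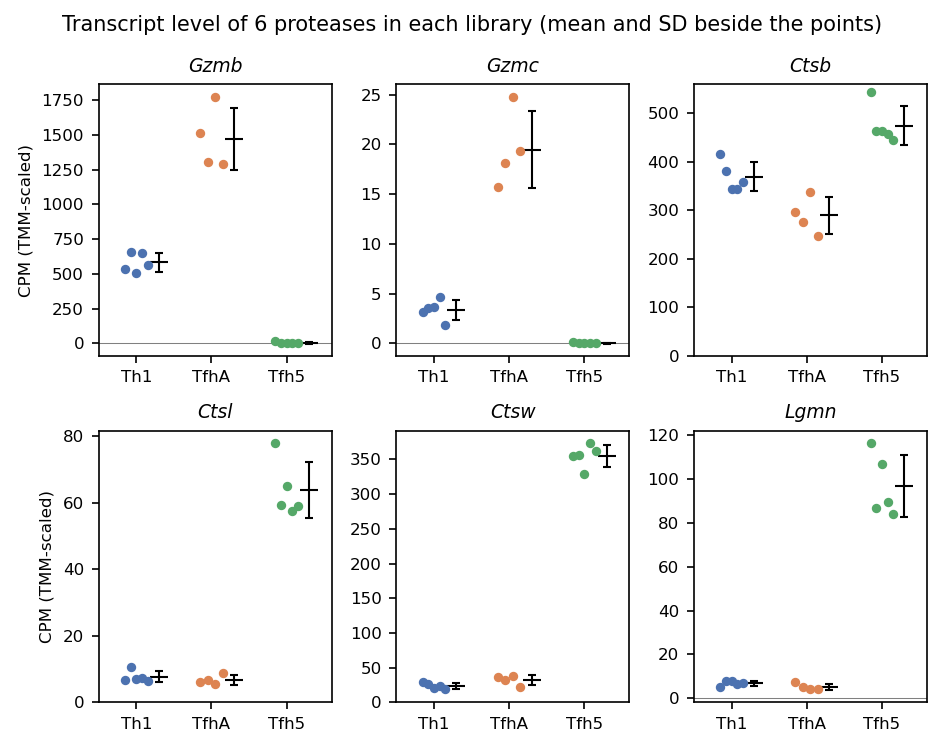
Transcript level of 6 proteases (y axis, TMM-scaled CPM, own range for each gene) in each library of Th1 (n = 5), TfhA (n = 4) and Tfh5 (n = 5), with mean and SD beside the points. Gzmb and Gzmc are highest in TfhA and near 0 in Tfh5, while Ctsb, Ctsl, Ctsw and Lgmn are highest in Tfh5.

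Death proteases of the cytosol were mixed. Of 11 tested caspases and calpains, 4 rose and 6 fell in Tfh5 against TfhA (median -0.27), 2 rose and 3 fell in TfhA against Th1 (median -0.12), and 3 rose and 6 fell in Tfh5 against Th1 (median -0.56). Casp1, the inflammatory caspase that activates interleukin-1β, fell 15.1-fold from TfhA to Tfh5 (26.9 ± 4.99 to 1.79 ± 0.811 CPM, adjusted p = 6.07e-14), and Casp4 13.7-fold (adjusted p = 2.62e-16). From Th1 to TfhA, Casp6 was 2.52-fold lower (adjusted p = 1.38e-09) and Casp2 1.63-fold higher (adjusted p = 1.95e-06).

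Protease inhibitors outside the serpin family gave 6 higher, 11 lower and 4 not past the threshold of 21 tested in Tfh5 against TfhA (median -0.52), 5 higher and 8 lower in TfhA against Th1 (median -0.13), and 4 higher and 12 lower in Tfh5 against Th1 (median -0.43). Timp2, an inhibitor of matrix metalloproteinases, shared the order of Serpinb1a, with 297.6 ± 23.4 CPM in Tfh5, 26.3 ± 7.72 in TfhA and 5.41 ± 0.700 in Th1 cells (11.2-fold higher in Tfh5 than in TfhA, adjusted p = 3.96e-16). Timp1 was lowest in TfhA cells, at 64.9 ± 9.93 CPM against 303.5 ± 16.2 in Th1 (adjusted p = 5.58e-13) and 251.2 ± 47.8 in Tfh5 cells (adjusted p = 1.8e-12). Itih5 fell 5.36-fold from TfhA to Tfh5 (adjusted p = 7.05e-14) and Birc5, or survivin, a mitotic protein of the inhibitor of apoptosis family, 3.03-fold (adjusted p = 4.48e-13). Timp3 was 8.67-fold lower in TfhA than in Th1 (adjusted p = 2.06e-06), and its Tfh5 to Th1 difference of 39.1-fold became 68.1-fold without Tfh5 replicate 1. Cstdc4, a stefin-like cystatin, was 2.5-fold lower in TfhA than in Th1 (adjusted p = 0.0144), a call that DESeq2 did not make (adjusted p = 0.128), and its Tfh5 to Th1 difference of 22.5-fold (adjusted p = 8.19e-08) became 55.6-fold without Tfh5 replicate 1.

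The machinery that stores and releases granule proteases was also mixed, with 5 higher, 5 lower and 5 not past the threshold of 15 tested in Tfh5 against TfhA (median 0.08), 6 and 6 in TfhA against Th1 (median 0.26), and 7 and 7 in Tfh5 against Th1 (median -0.16). Nkg7, a granule membrane protein of cytotoxic cells, fell 103-fold from TfhA to Tfh5 (196.9 ± 21.3 to 1.91 ± 1.18 CPM, adjusted p = 2.04e-18). Prf1, the pore-forming perforin, fell 9.04-fold (8.51 ± 4.02 to 0.922 ± 0.682 CPM, adjusted p = 2.1e-06), and its TfhA and Th1 levels did not differ past the threshold (adjusted p = 0.309). Fasl, the death ligand, was 4.9-fold lower in TfhA than in Th1 (adjusted p = 2.72e-09) and a further 4.13-fold lower in Tfh5 (adjusted p = 2.71e-07). Srgn, serglycin, the proteoglycan to which granzymes bind in granules, was 2.16-fold lower in TfhA than in Th1 (adjusted p = 6.13e-08). Rab27a, needed for granule docking, rose 1.78-fold (adjusted p = 3.6e-08).

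Transcription factors linked to serpin genes or to the interferon and T-box pathways were listed as well: of 19 tested, 5 rose and 9 fell in Tfh5 against TfhA (median -0.20), 1 rose and 14 fell in TfhA against Th1 (median -0.61), and 3 rose and 13 fell in Tfh5 against Th1 (median -0.74). Tbx21, or T-bet, the Th1 master regulator, measured 244.0 ± 35.3 CPM in Th1, 61.6 ± 7.06 in TfhA and 1.90 ± 0.424 in Tfh5 cells, and was 3.96-fold lower in TfhA than in Th1 (adjusted p = 9.48e-13) and 32.6-fold lower in Tfh5 than in TfhA (adjusted p = 1.84e-18). Prdm1, or Blimp-1, was 11.1-fold lower in TfhA than in Th1 (adjusted p = 2.02e-13) and a further 27.5-fold lower in Tfh5 (adjusted p = 4.21e-11). Irf8 was 25.9-fold lower in TfhA than in Th1 (adjusted p = 2.28e-17) and rose 2.5-fold from TfhA to Tfh5 (adjusted p = 9.1e-09). Runx3 fell 3.13-fold from Th1 to TfhA (adjusted p = 8.36e-12). Irf4 and Stat5b were higher in Tfh5 than in TfhA, by 2.2-fold (adjusted p = 4.79e-11) and 2.19-fold (adjusted p = 1.4e-10). Both were lowest in TfhA, with means of 2210.8, 1010.0 and 2222.2 CPM for Irf4 and 267.8, 141.8 and 310.3 CPM for Stat5b in Th1, TfhA and Tfh5 cells. Irf4 did not differ past the threshold between Tfh5 and Th1 (adjusted p = 0.941), and Stat5b was 1.16-fold higher in Tfh5 (adjusted p = 0.0307).

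The genes whose pattern over the 14 libraries was most like each serpin's were found by the smallest root mean square difference between centred log2 CPM values among 10017 genes with at least 5 CPM in a group. For Serpinb9 they were Gbp4 (0.364), a guanylate-binding protein induced by interferon, Scn9a (0.396) and Gbp8 (0.415). For Serpinb9b they were Ms4a4c (0.368), Gzmc (0.560) and Dcn (0.668). For Serpinb6b they were Slamf7 (0.403), Ubd (0.408) and Il12rb2 (0.413), the last a chain of the interleukin-12 receptor. Serpina3f was nearest to Ncf1 (0.332), Ifitm3 (0.370) and Tmem159 (0.373), and Serpina3g to Klrk1 (0.511), Stc2 (0.668) and Coro2a (0.668). Serpinb1a was nearest to Rasgrp3 (0.399), Timp2 (0.512) and Tox2 (0.512), and Serpinb6a to Spop (0.113), Rab8b (0.121) and Slu7 (0.123). A prior count of 2 was added before the log, which flattens values near 0, so the distances are loose for genes near 0 in Tfh5. From Th1 to Tfh5, mean Serpina3f went from 13.54 to 0.0190 CPM and mean Ncf1 from 246.7 to 4.09 CPM. These distances describe the same libraries from which the serpin values come.

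The tested serpins of this group lie in gene clusters on chromosomes 13 and 12. The 5 clade B members lie in a cluster of 16 serpins over 1160703 bases of chromosome 13 (GRCm38.p6, 32842092 to 34002794), of which those 5 alone were tested. Serpinb1a, at 1 end, was higher in Tfh5 than in TfhA, its nearest tested serpins Serpinb6b, Serpinb9 and Serpinb9b were lower, and Serpinb6a at the other end differed least. Beside the cluster, Wrnip1 did not differ past the threshold between Tfh5 and TfhA (50.1 ± 8.23 and 52.4 ± 10.1 CPM, adjusted p = 0.68), nor did Bphl on the other side (adjusted p = 0.382). Inside it, Nqo2 fell 3.8-fold from TfhA to Tfh5 (adjusted p = 3.62e-13) and rose 4-fold from Th1 to TfhA (adjusted p = 5.33e-13). Ripk1, which overlaps the Serpinb6a end of the cluster and is named here after its values were seen, fell from 148.7 CPM in TfhA to 95.3 in Tfh5 cells (log2 -0.64 ± 0.09, adjusted p = 1.81e-06). Serpina3f and Serpina3g were the tested members of a cluster of 25 serpins over 797660 bases of chromosome 12 (103616675 to 104414334). Of its neighbours, Ppp4r4 rose 5.23-fold from TfhA to Tfh5 at low level (1.52 ± 0.857 to 7.72 ± 0.965 CPM, adjusted p = 3.89e-07), or 8.03-fold with those 3 libraries left out (TfhA replicates 2 and 5, Th1 replicate 1), and Dicer1 did not differ (adjusted p = 0.951).

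**Figure D5:**
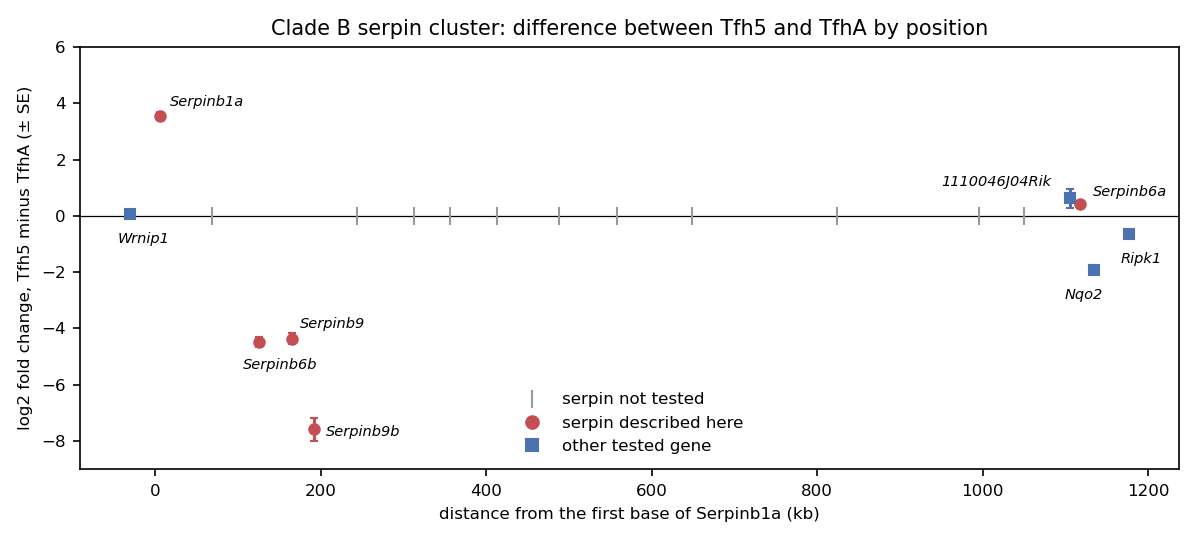
Log2 fold change ± SE of Tfh5 minus TfhA (y axis) for the tested genes of the clade B cluster and its edges, by distance of the gene's middle from the first base of Serpinb1a (x axis, kb); red circles are the serpins described here, blue squares other tested genes and grey ticks serpins that were not tested. Serpinb1a (3.54) and the group of Serpinb6b (-4.48), Serpinb9 (-4.36) and Serpinb9b (-7.59) lie close together on opposite sides of 0.

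Markers of other cell types were read in the same libraries. The 8 CD4 T cell markers were all present, and their sum ranged over 7405.7 to 7898.2 CPM for Tfh5, 4605.2 to 5539.0 for TfhA and 4317.5 to 4562.3 for Th1 libraries. The 7 CD8 T and NK cell markers summed to 60.5 to 112.9 CPM over all libraries, with Ncr1 at 0. Within that list Klrk1 had means of 40.9, 23.1 and 0.915 CPM in Th1, TfhA and Tfh5 cells, the order of Serpinb6b and Serpina3g. Eomes had that order too, at 3.59, 2.35 and 0.357 CPM, and Klrd1 had 16.6, 40.2 and 73.3 CPM, the order of Serpinb1a. Cd8b1, at 17.7, 10.7 and 12.9 CPM, and Cd8a, at 0.470, 1.98 and 0.0381 CPM, had neither of these orders. The 4 gamma delta T cell markers summed to 42.4 to 106.6 CPM in TfhA, against 4.95 to 8.66 in Th1 and 7.77 to 17.1 in Tfh5 libraries. Their sum was highest in TfhA libraries, as Serpinb9b, Gzmb and Gzmc were, and its Th1 and Tfh5 ranges overlapped. Trdc gave most of the sum, with means of 5.54, 53.4 and 11.7 CPM in Th1, TfhA and Tfh5 cells. In the same order Tcrg-C1 had 0.122, 1.34 and 1.19 CPM, Tcrg-C2 0.262, 5.10 and 0.0759, and Tcrg-C4 0.390, 10.15 and 0.379. The 7 monocyte, macrophage and dendritic cell markers had a sum of 156.6 to 215.5 CPM for Th1, 44.1 to 90.1 for TfhA and 6.01 to 8.74 for Tfh5 libraries, in the order of Serpinb6b and Serpina3g. Cd74 gave most of that sum and its order, with means of 174.8, 60.4 and 6.83 CPM in Th1, TfhA and Tfh5 cells. H2-Aa, the other tested marker of the list, had a different order, with 0.361, 6.98 and 0 CPM, highest in TfhA cells. Adgre1 was at 0 and Lyz2 was at or near 0 in every group. The 7 B cell markers summed to 64.3 to 75.2, 77.6 to 97.9 and 191.4 to 232.7 CPM in the order of Serpinb1a, with Ighm giving 210.9 CPM of the mean in Tfh5 and Ms4a1 under 2 CPM in each group. Of the 7 neutrophil markers, which sum to 119.9 to 178.4, 22.7 to 30.8 and 52.9 to 119.8 CPM, Ly6g gave nearly all, and Elane, Mpo, Prtn3, S100a8 and S100a9 were at or near 0. The 7 mast cell and basophil markers summed to at most 11.7 CPM, nearly all from Kit, and the 6 red cell and platelet markers to at most 2.39 CPM. Mitochondrial genes held 7.29 to 8.54% of counts in Tfh5, 4.07 to 7.01% in TfhA and 4.46 to 6.56% in Th1 libraries. They were highest in Tfh5 libraries, as Serpinb1a was, and the Th1 and TfhA ranges overlapped. The part of these in the serpin differences was not tested.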

How the data were processed

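Bulk RNA of 14 libraries was measured. The deposited values are raw gene counts under Entrez identifiers, made by the authors with STAR 2.7.2b and featureCounts 1.6.4 on mm10, per the submitters' processing notes. The sources used here name no annotation, strand setting or rule for reads that map to several places. Of 27179 genes, 25275 have a RefSeq symbol, and those without hold 1.91% of counts. Library totals ran from 8805921 to 16108059 counts, and the common biological coefficient of variation was 14.25%.

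Groups came from the sample titles. All libraries entered a fit of group means in edgeR 4.0.16 (R 4.3.3) with TMM scaling and filterByExpr (13075 genes), and the quasi-likelihood F test was two-sided with Benjamini-Hochberg adjustment over all tested genes. The script was tested on simulated data. Transcript lengths, coding identity and exon overlaps came from GENCODE M21, and symbols, positions and promoters from RefSeq for GRCm38.p6. DESeq2 1.42.0, other scalings, other filters, a replicate block and left-out libraries were alternatives. Replicate numbers were not used as pairs.

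The 7 members and the 17 gene lists were chosen with earlier results of these data known. Named genes were the 7 members, other serpins with at least 1 CPM in a group mean, and, per list and comparison, up to 4 genes past the threshold whose higher group reached 5 CPM, by size of change (where none passed, up to 2 of the most abundant). To these were added the 3 nearest patterns per member and the nearest tested genes at each cluster. Target proteases named for a member's known role (Gzma, Gzmm, Elane, Prtn3, Ctsg, Ctsb) were added for that role after their values were seen. Some genes that the rule names are not reported here.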

Additional observations from a re-analysis of the deposited data

Results flagged for a closer look

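Within groups of 4 or 5 libraries, 8 of 54 groups checked over 18 genes had a library far from the others by Dixon's gap test, where chance gives about 1 in 20. Among the 7 serpins, Serpina3f had 0.0951 CPM in Tfh5 replicate 1 (a single count) and 0 in the other Tfh5 libraries, where any single count would be marked. Serpina3g measured 1.99 CPM in Tfh5 replicate 4, against 0 to 0.571 in the others. Serpinb9 measured 8.16 CPM in that same library, against 3.02 to 3.81. Serpinb6a measured 79.5 CPM in Tfh5 replicate 5, against 108 to 119. Among the other genes, Serpinb5 measured 573 CPM in Th1 replicate 1 (723 to 750 in the others) and Serpinf1 91.2 CPM in Tfh5 replicate 2 (73.9 to 76.5). Near the clade B cluster, 1110046J04Rik measured 2.7 CPM in TfhA replicate 4 (1.19 to 1.29) and Wrnip1 70 CPM in Tfh5 replicate 1 (46.6 to 51.9).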

How the results depend on the processing

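Counts of genes past the threshold stayed within 1.5 times of the reported 7520 (Tfh5 against TfhA), 5852 (TfhA against Th1) and 8440 (Tfh5 against Th1) under every alternative run, with ranges of 6869 to 7917, 4393 to 6146 and 8031 to 9166. With replicate number as a block they were 7258, 5521 and 8285. The numbers gave no clear pairing of the samples. Of 13 same-numbered pairs, 1 had a correlation of deviations over 0.1 (range -0.048 to 0.155). Of 14 libraries, 5 correlated best with their own number. Such low correlations do not show that same-numbered libraries were unrelated. Member differences kept their sign in every alternative run except Serpinb6a in TfhA minus Th1, which was within its error and was 0.07 in log2 with TfhA replicates 2 and 5 and Th1 replicate 1 left out together. That alternative was chosen after seeing the data, from the libraries of different groups with the strongest correlations of deviations of either sign (0.327 for Th1 replicate 1 with TfhA replicate 2, -0.368 with TfhA replicate 5). Of the calls on other named genes, Dicer1 in Tfh5 minus Th1 (adjusted p = 0.0321) was lost in 7 alternatives (0.0531 to 0.107), and those of Cd3e, Ctso and Ebf1 in TfhA minus Th1 were lost without the same 3 libraries (adjusted p = 0.0743, 0.121 and 0.0911). Dicer1 in TfhA minus Th1 passed without Tfh5 replicate 1 (0.0303), and 1110046J04Rik in Tfh5 minus TfhA without TfhA replicate 4 (0.0251). Counts near 0 in Tfh5 limit the folds of Serpinb9b, Serpina3f and Serpina3g there.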
